A study of Mus musculus with 16 samples.

Results

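TKO mouse embryonic stem cells (mESCs) lack the 3 genes of the active DNA methyltransferases, Dnmt1, Dnmt3a and Dnmt3b, so that they have no enzyme that places or maintains DNA methylation. Their response to 2i medium was read from 5 of the 16 arrays of the series: all arrays whose labels name TKO mESCs, 2 from cells in serum (TKO-serum) and 3 from cells in 2i (TKO-2i). The serum medium held 15% foetal calf serum (FCS) and leukaemia inhibitory factor (LIF) at 500 U/ml. The 2i medium was serum-free N2B27 with the MEK inhibitor PD0325901 at 1 uM, the GSK3 beta inhibitor CHIR99021 at 3 uM and LIF at 1000 U/ml, and lasted 2 weeks, so the 2 inhibitors, the loss of serum and the higher LIF changed together. TKO cells grew without feeder cells in both media. The other 11 arrays were used to estimate the spread and to compare responses. They came from wild-type J1 mESCs (4 J1-serum arrays, cultured with SNLP feeder cells inactivated by Mitomycin C, and 3 J1-2i arrays) and from feeder-free 3B3l mESCs (2 arrays in each medium), which are Dnmt3a and Dnmt3b knockouts with constitutive expression of Dnmt3b and Dnmt3l from added constructs. All lines derive from male J1 cells. Whether the arrays of a group came from separate cultures, and whether the TKO line is a single clone, is not given in the sources used here, so the p-values measure the spread between these samples, which may be technical.

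MEK is the kinase that activates ERK, which carries fibroblast growth factor (FGF) signals towards differentiation. GSK3 marks beta-catenin for destruction, so its inhibition leaves beta-catenin free to act on the TCF/LEF factors of the Wnt pathway. LIF acts through Stat3. Together they hold mESCs in the naive ground state. In wild-type mESCs 2i also lowers DNA methylation across the genome, and many genes of the germline are known to be silenced by methylation of their promoters. TKO cells have no methylation to lose.

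Values are log2 processed signal with the array's own 75th percentile set to 0, and are given for TKO-serum replicates 1 and 2 and then for TKO-2i replicates 1, 2 and 3. A difference is 2i minus serum on this log2 scale, with the standard error (SE) of a linear model of all 16 arrays (limma), and adjusted p-values are Benjamini-Hochberg values over 27126 probes. A gene was called, and is said to have risen or fallen, when the adjusted p did not exceed 0.05 and the change was 2-fold or more. Where a probe was well above background in 1 group only, the fold is a bound against the lowest signal well above background, or against the dim group's own signal where that was higher, as for Hoxc4, and is written as at least N-fold. A log2 difference printed for such a gene is the fitted value and no bound. Levels of different genes come from different probes and are not compared with each other. Where arrays of the 2 media are said to lie apart or not to overlap, this describes the arrays behind the call. It is no separate support for it.

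Members of gene lists that are named below as risen or fallen kept their call under every alternative in which their probe was tested, or at least 1 exception is given. A filter that asked for signal well above background on all 16 arrays left untested any probe that was dim on an array, and the counts it gave are printed beside the lists it changed most. Among the genes described by 1 probe, another tested probe was not called for Vax2os, Trpm1, Foxp1, Uhrf1, Tnfrsf19, Ncam1, Plagl1, Mvk, Stard4 and Cdkn1a, and another was called lower for Lifr, Fgfr1, Srf, Hormad1 and Usp17la. The share of spots well above background was 43.4% to 49.0% on the 5 TKO arrays, and their 75th percentile was 1047 to 1395 intensity units. TKO-2i replicate 1 was on another slide than the other 4 and correlated with TKO-2i replicates 2 and 3 at 0.973 and 0.969 over probes, against 0.991 between those 2 and 0.980 between the serum arrays. Of the deleted genes, Dnmt3a gave no signal well above background on the 5 TKO arrays. The Dnmt1 probe read -1.70 and -1.65 in serum and -1.58, -1.42 and -1.64 in 2i, and the Dnmt3b probe -0.25 and -0.44 and -0.69, -0.53 and -0.70. Whether these probes lie inside the deleted parts was not determined, so they do not check the knockouts. The 5 mESC markers (Pou5f1, Nanog, Sox2, Zfp42 and Esrrb) were well above background on every TKO array. Their summed linear signal was 187.3 to 200.7 times the 75th percentile in serum and 241.2 to 248.4 times in 2i, but Pou5f1, Nanog and Zfp42 were saturated on both serum arrays and on some or all 2i arrays, so these sums are lower limits and are not compared between media.

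Of 13919 named genes tested, 1044 rose in TKO-2i (7.5%) and 1416 fell (10.2%), and 4 genes had probes called both ways. At least an 8-fold change was fitted for 72 of the risen and 178 of the fallen genes. The median difference over genes was 0.07, and the median SE over probes was 0.18. Without TKO-2i replicate 1, 979 of the 1044 risen (93.8%) and 1329 of the 1416 fallen genes (93.9%) kept their call, and in a fit of the arrays of slide 1 alone, 4 of them from TKO cells, 978 and 1312 did. Many calls were of genes near or below background on one side: 209 called probes were well above background on no serum array and 683 on no 2i array. 19 risen and 47 fallen genes were called only by probes that were above background on none of the 5 TKO arrays, and no fold is given for such genes.

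The 12 largest increases and 12 largest decreases among genes that were well above background on all 5 arrays, with no overlap between media, began with 5.02 for Crxos, a homeobox gene, and -5.45 for AF067061. Next to genes that stand out in the list for their function (Cdx1 and Sp5, targets of Wnt signalling, Xaf1, an interferon-inducible gene, and Tagln and Acta2, of the contractile cytoskeleton) stood several from other classes. Fam53b read -2.20 and -1.99 in serum and 2.34, 2.17 and 2.15 in 2i, a rise of 4.32 ± 0.14 (adjusted p = 3.94e-10, limma), and its 3 probes gave differences between 1.27 and 4.32. Ly6c1, a GPI-anchored surface antigen, rose by 4.22 ± 0.16 by this probe and by 2.21 by its other probe, and Rac2, a small GTPase of blood cells, by 3.62 ± 0.16. Ppp1r14d, an inhibitor of protein phosphatase 1, rose by 4.15 ± 0.18 and Grik3, a kainate receptor subunit, by 3.20 ± 0.24. On the falling side, Slc38a4, an imprinted amino acid transporter, read 2.89 and 2.79 in serum and -0.69, -1.02 and -1.42 in 2i. Gap43 and Basp1, membrane-bound growth cone proteins, fell by 3.98 ± 0.16 and 3.66 ± 0.22. The other risen genes were Bhmt, Vax2os and Pla1a. The other fallen genes of this set were Aass, Gm4312, Gm4340, Cldn6, Foxp1, whose probes disagreed in size (between -4.42 and -0.29), and Id2.

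**Figure D1:**
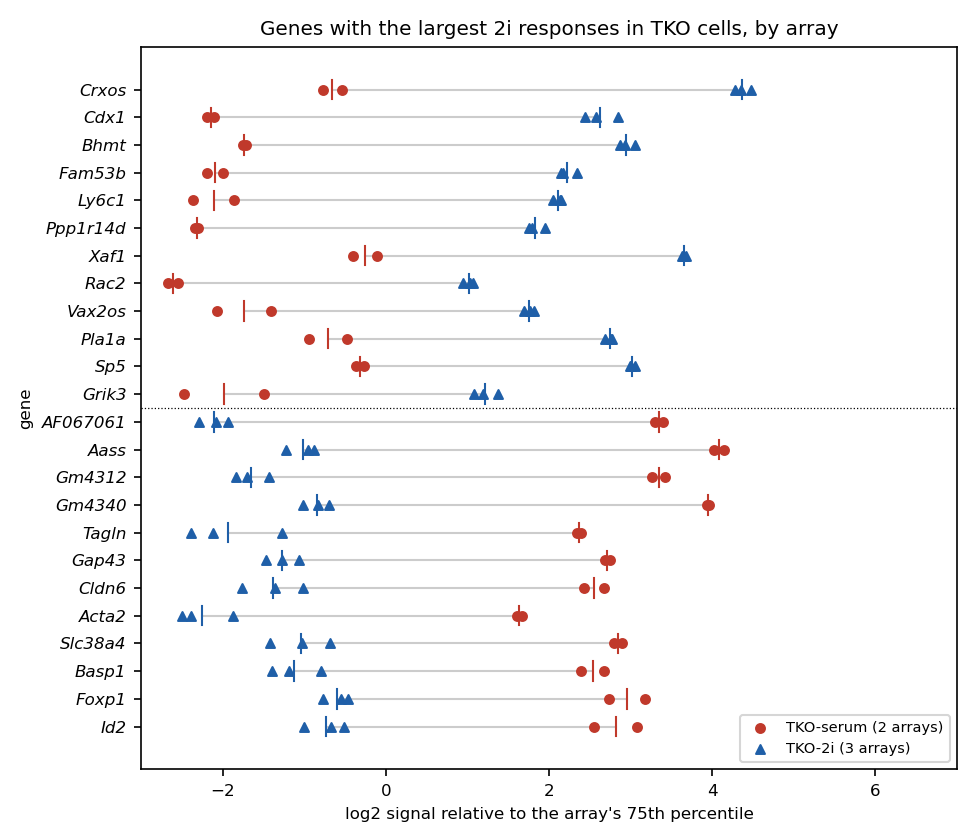
Log2 signal, with the 75th percentile of each array at 0 (x axis), of the 24 genes with the largest increases and decreases in TKO cells (y axis), with 1 point per array: circles are the 2 TKO-serum arrays, triangles the 3 TKO-2i arrays, and vertical ticks the group means. The media do not overlap for any of these genes, as the choice of genes required, and the fitted differences run from 5.02 for Crxos to -5.45 for AF067061.

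Among genes above background in 1 medium only, Dmgdh, Trpm1, Dclk3, Hoxc4 and Pglyrp1 were the highest bounds upwards, and a second Crxos probe gave at least 52.6-fold, while the differences of the 3 Crxos probes ran from 2.85 to 5.93. Trpm1, a cation channel of melanocytes and retina, read -4.80 and -5.07 in serum and 2.30, 2.06 and 2.09 in 2i, at least 51.7-fold higher (adjusted p = 7.60e-09, limma), while its second probe was at 0.0076 and not called. Dclk3, a kinase of the doublecortin family, was at least 29.8-fold higher and Pglyrp1, a peptidoglycan recognition protein, at least 21.7-fold. In the other direction stood Zscan4f, H19, Zscan4b, Gm20767, Myl9 and Gm4312. H19, an imprinted non-coding RNA, was at least 81.2-fold lower by this probe, and its 5 probes gave differences between -7.29 and -5.39.

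A run of 3 neighbouring genes on chromosome 13 of assembly GRCm38.p6 rose together: Bhmt, Bhmt2 and Dmgdh, which act on methyl groups of betaine and related donors. Bhmt, which passes a methyl group from betaine to homocysteine, read -1.75 and -1.72 in serum and 3.05, 2.87 and 2.93 in 2i, a rise of 4.68 ± 0.22 (adjusted p = 1.03e-08, limma). Bhmt2, which does the same with another methyl donor, read -3.73 and -1.51 and 1.30, 1.29 and 1.27. Its serum arrays lay far apart, with 1 of the 2 above background, and its call was lost in an unmoderated test of the 5 TKO arrays. Dmgdh, which takes the next methyl group off the product, read -4.72 and -4.56 and 2.64, 2.40 and 2.46, at least 66.1-fold higher. On all 3 probes every 2i array lay above both serum arrays. Bhmt had responses of 5.31 in J1 and 5.01 in 3B3l, and neither difference from TKO passed the test (-0.63 ± 0.29 and -0.33 ± 0.33; adjusted p = 0.142 and 0.592, limma). Of the 25 tested genes of choline, folate, serine and methionine metabolism, 6 rose and 0 fell, with a median difference of 0.11 against 0.07 over all genes. With 1 probe per gene, as for every list here, 6.7% of all genes tested rose and 9.02% fell. Beside the 3 neighbours the risen genes included Gcat, which makes glycine from threonine with Tdh (1.26 ± 0.17), and Amt, which was just past the threshold at 1.23 and lost the call without TKO-serum replicate 2 (1.07, adjusted p = 0.056, limma). Ahcy (0.07), Mat2a (-0.10), Mtr (0.41) and the Shmt and Mthfd enzymes did not pass.

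**Figure D2:**
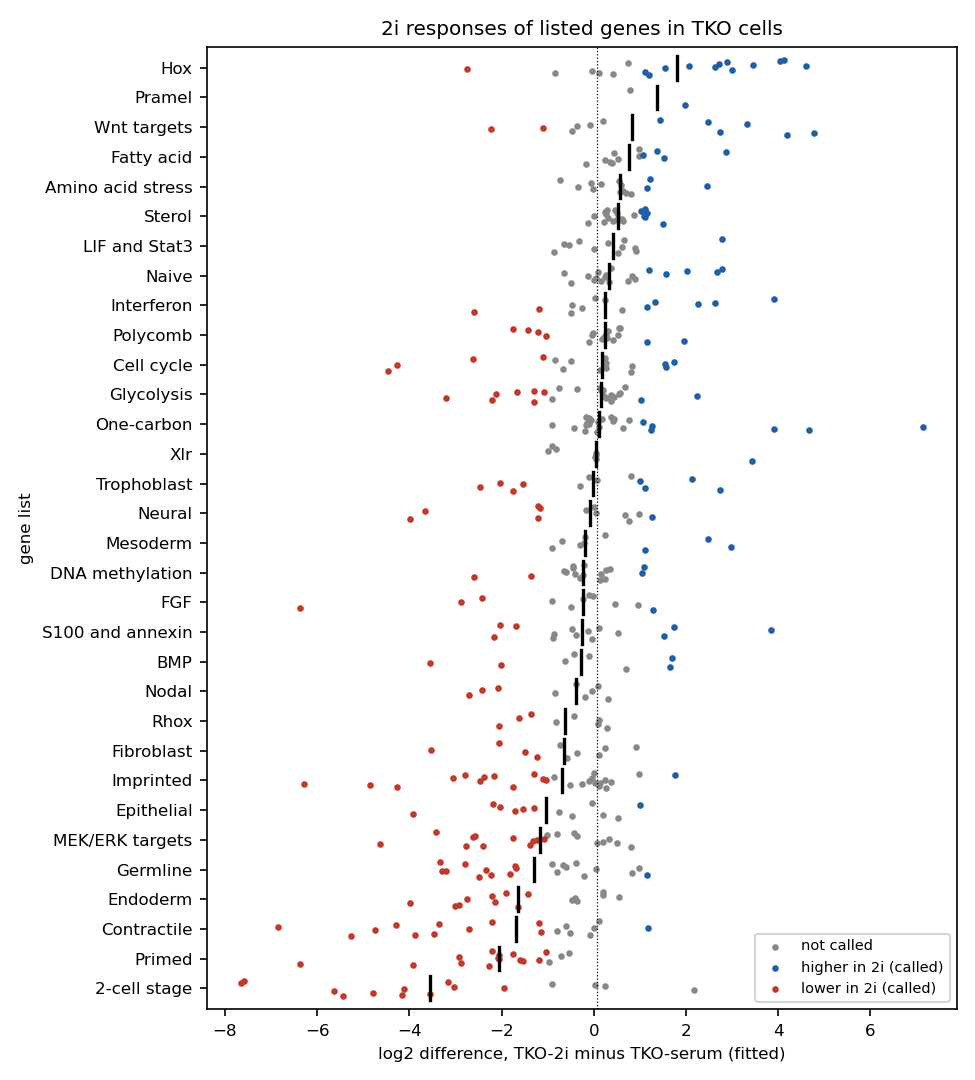
Fitted log2 differences, TKO-2i minus TKO-serum (x axis), of every tested gene of 32 gene lists (y axis, ordered by the list's median, the black tick), with 1 point per gene, blue and red for genes called higher and lower in 2i and grey for genes not called; the dotted line is the median of all genes, 0.07. The list medians run from 1.81 for the Hox genes to -3.54 for the 2-cell-stage genes.

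Targets and feedback inhibitors of ERK fell. Of 20 tested genes 11 fell and 0 rose, with a median of -1.16, and 4 were called lower under the filter on all 16 arrays. Egr1, an immediate early transcription factor, read 2.75 and 2.05 in serum and -1.71, -1.82 and -3.21 in 2i, where it was above background on 2 of 3 arrays, a fall of 4.65 ± 0.39 (adjusted p = 1.17e-06, limma). Dusp6, the phosphatase that dephosphorylates ERK in the cytoplasm, read 2.35 and 2.28 and 1.00, 0.75 and 1.04, a fall of 1.39 ± 0.13. For both genes every 2i array lay below both serum arrays. The nuclear ERK phosphatases Dusp4 and Dusp5 fell to below background, at least 5.3-fold and 2.9-fold, and Spry4, an inhibitor of receptor signalling, read 1.40 and 0.18 in serum and -2.75, -2.56 and -2.56 in 2i, where 1 of 3 arrays was above background. Myc fell by 2.61 ± 0.19. The response was not uniform over the pathway. The Ets factors Etv1 (0.07), Etv4 (0.50) and Etv5 (0.21), which are FGF targets in many tissues, were not called, nor were Spry1 (-0.79) and Spry2 (-0.43), and Ccnd1, cyclin D1, was 0.81 ± 0.15 (adjusted p = 9.20e-04), below the 2-fold limit. Fosl1, Fos, Junb, Ier3 and Phlda1 were also called. In an unmoderated test of the 5 TKO arrays Fosl1, Fos, Junb, Ier3 and Phlda1 lost their calls and 6 of the list were called. Without TKO-serum replicate 1 Fos was at -0.94 and Fosl1, which was above background on 1 array, at -0.70, and Ier3 at -0.81 without TKO-serum replicate 2, all below the limit. Fosl1 was also not called in the 5 TKO arrays alone (adjusted p = 0.097, limma), on slide 1 (adjusted p = 0.078, limma), after normexp correction (-0.87) or in the authors' deposited values (-0.23).

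Targets of beta-catenin rose more often than they fell. Of 12 tested genes 6 rose and 2 fell, with a median of 0.82, and 3 were called higher under the filter on all 16 arrays. Sp5, a direct target and repressor of Wnt-responsive genes, read -0.37 and -0.26 in serum and 2.99, 3.01 and 3.06 in 2i, a 10.1-fold rise (adjusted p = 3.52e-08, limma). Axin2, the scaffold that feeds back on the pathway, was not above background in serum (-4.13 and -4.51) and read -0.35, -0.12 and 0.07 in 2i, at least 10.6-fold higher. Both genes had all 2i arrays above all serum arrays. The caudal factors Cdx1 and Cdx2 rose by 4.77 ± 0.23 and by at least 3-fold, and Tnfrsf19, a receptor of the tumour necrosis factor family, by 1.44 ± 0.10. T (brachyury) was called higher, but read -4.73 and -4.81 in serum, below background, and -2.44, -2.45 and -1.98 in 2i, with 1 of 3 arrays above it, so no size is given. Lef1, one of the factors through which beta-catenin acts, fell at least 4.08-fold (-0.95 and -1.53 in serum, -3.69, -3.53 and -3.21 in 2i). Nkd1 also fell, with a difference of -1.11, which became -0.95 and was no longer called without TKO-serum replicate 1, and -0.73 after normexp background correction. Tcf7 (0.21), Notum (-0.07) and Dkk1 (-0.47) did not pass the test. The TCF/LEF core CTTTGAT, on either strand, was found in the 250 bases before the start of 2 of 11 listed genes with a promoter window, Sp5 and Tnfrsf19, against 3.72% of 27025 genes. The window of Sp5 (RefSeq, assembly GRCm38.p6, chr2:70474673-70474922, plus strand) is shown because this gene had the largest rise of the called targets above background in both media other than Cdx1, with the core in capitals, at position -104 from the start.

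Sp5: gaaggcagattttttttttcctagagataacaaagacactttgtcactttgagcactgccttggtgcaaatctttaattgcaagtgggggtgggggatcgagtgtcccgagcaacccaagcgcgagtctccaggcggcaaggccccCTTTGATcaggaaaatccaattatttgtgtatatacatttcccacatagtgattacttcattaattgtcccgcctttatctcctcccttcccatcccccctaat

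The LIF and Stat3 axis gave 1 call in 12 tested genes (median 0.41). Tfcp2l1, a factor of the naive network, read 1.80 and 1.37 in serum and 4.45, 4.33 and 4.30 in 2i. The receptor genes Lifr (0.62) and Il6st (0.93) and Stat3 itself (0.65) were below the 2-fold limit, and Il6st reached 1.01 and was called without TKO-2i replicate 3. The feedback inhibitor Socs3 was -0.32 ± 0.14 (adjusted p = 0.11). The palindrome TTCNNNGAA, bound by Stat3, was in 1 of 11 windows of the list (Socs3) and in 8.13% of all windows.

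Of 19 naive pluripotency genes 5 rose and 0 fell, with a median of 0.33. Beside Tfcp2l1 these were Tbx3 (2.02 ± 0.12), Prdm14 (1.57 ± 0.12), Spic and Tcl1. Spic, an Ets factor, read -0.63 and -0.26 in serum and 2.25, 2.12 and 2.34 in 2i, and its response was 4.85 in J1 and 1.79 in 3B3l (difference from J1 -2.17 ± 0.23, adjusted p = 2.06e-05, limma). Tcl1, a coactivator of Akt, was at 1.21 and fell to 0.94, below the limit, without TKO-serum replicate 1. Below the 2-fold limit were Esrrb 0.74 ± 0.10 (adjusted p = 1.00e-04), Klf4 0.90 ± 0.14, Klf2 0.01 ± 0.17 and Sox2 0.09 ± 0.18. Nanog, Pou5f1, Zfp42 and Dppa5a were saturated on both serum arrays, so the levels behind their differences (0.24, 0.27, 0.37 and 0.33) are bounds. Klf4 rose to 1.07 and was called without TKO-serum replicate 1.

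Genes of the formative and primed epiblast fell as a group: 14 of 17 tested, none up, with a median of -2.04. Fgf15, a secreted FGF of the early neural and epiblast lineages, read 1.95 and 2.37 in serum and -4.06, -4.22 and -4.36 in 2i, at least 45.6-fold lower (adjusted p = 2.71e-10, limma). Otx2, a homeobox factor of the epiblast and forebrain, read 3.91 and 4.01 and 1.85, 1.72 and 2.18, a fall of 2.04 ± 0.12. Pou3f1 (Oct6) fell by 2.92 ± 0.21, Sox3 by 2.06 ± 0.15, Zic5 by 2.21 ± 0.15, Pim2 by 2.07 ± 0.14 and Utf1, an embryonic chromatin factor, by 1.74 ± 0.12. In all of these the 2 media did not overlap. Lin28a and Lin28b, which block maturation of let-7 microRNAs, fell by 1.20 ± 0.23 and 1.59 ± 0.11. Fgf5, the classical epiblast marker, went from -1.91 and -2.01 to below background (-4.69, -4.83 and -5.01), at least 2.62-fold lower. Zic2 was at -1.03, and at -0.92 and not called without TKO-serum replicate 1. Foxd3 (-0.97), Sall2 (-0.71) and Zfp281 (-0.55) were not called.

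The growth factor pathways gave calls in both directions. Of 9 Nodal pathway genes 3 fell (median -0.38), among them Lefty1, a secreted Nodal inhibitor (4.90 and 4.89 in serum, 2.06, 2.13 and 2.35 in 2i, 6.56-fold lower) and Skil, while the ligand Nodal (-0.04 ± 0.15) and its co-receptor Tdgf1 (-0.38 ± 0.13) were not called. Of 8 genes of the BMP pathway, Id1 (-2.01 ± 0.16) and Id2 (-3.54 ± 0.22) fell, Id4 (1.69 ± 0.13) and the ligand Bmp7 (1.66 ± 0.14) rose, and the median was -0.27. The Id genes, inhibitors of helix-loop-helix factors, did not move one way, and Id3 was -0.61 ± 0.29. Of 11 FGF ligands and receptors 1 rose and 3 fell (median -0.23). The falls were of Fgf5, Fgf15 and Fgfr2, which lost its call in the unmoderated test of the 5 arrays, and the rise was of Fgf10 (1.28, and 0.90 and not called after normexp background correction). Fgf4, the main ligand of mESCs, was 0.47 ± 0.12 and Fgfr1 -0.23 ± 0.29, and neither was called.

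Genes of the contractile cytoskeleton had some of the lowest values. Of 18 tested genes, mostly targets of serum response factor (SRF) and YAP, 11 fell and 1 rose, with a median of -1.69, and 5 were called lower under the filter on all 16 arrays. Myl9, a myosin regulatory light chain, read 2.22 and 2.46 in serum and -4.60, -4.78 and -4.16 in 2i, at least 51.5-fold lower (adjusted p = 2.07e-10, limma). Acta1, skeletal muscle actin, read 0.71 and 0.59 and -4.46, -4.59 and -4.80, at least 16-fold lower. Tagln (transgelin) read 2.35 and 2.39 and -1.27, -2.12 and -2.39. In each of these 3 genes the lower serum array was more than 3 log2 units above the highest 2i array. Acta2 fell by 3.89 ± 0.23, Cnn2 by 2.71 ± 0.12 and Tpm2 by 2.21 ± 0.11, and Thbs1 and Ankrd1, targets of YAP, by at least 4.13-fold and 4.11-fold. Csrp1, a LIM protein of actin bundles, rose by 1.17 ± 0.12. Ccn1 (-1.14) was at -0.97 after normexp correction and at -0.99 without TKO-serum replicate 1, and was then not called. Acta2, Tagln, Myl9 and Thbs1 are also expressed by fibroblasts, whose 16 markers summed to 5.148 to 6.186 times the 75th percentile in TKO-serum and 2.717 to 2.889 times in TKO-2i, and their part in these falls was not tested. The more general components Vcl (0.11), Flna (0.00) and Actn1 (-0.08) and Srf itself (-0.61) were not called. CArG boxes, to which SRF binds, were in 5 of 15 windows of the list (Acta1, Cnn2, Myl9, Srf and Vcl), 3 of which fell, and in 1.62% of 27025. The list was chosen to hold SRF targets, so its higher share says nothing about the falls. The windows of Myl9 (chr2:156775214-156775463, plus strand, box at position -161 from the start) and Acta1 (chr8:123894776-123895025, minus strand, box at position -73) belong to the 2 largest bounds of the list and are shown with the box in capitals (RefSeq, GRCm38.p6).

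Myl9: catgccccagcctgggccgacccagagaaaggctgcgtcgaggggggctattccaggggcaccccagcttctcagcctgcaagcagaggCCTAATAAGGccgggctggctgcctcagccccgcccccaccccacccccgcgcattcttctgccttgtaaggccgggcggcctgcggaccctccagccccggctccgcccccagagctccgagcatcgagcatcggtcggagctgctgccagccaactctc

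Acta1: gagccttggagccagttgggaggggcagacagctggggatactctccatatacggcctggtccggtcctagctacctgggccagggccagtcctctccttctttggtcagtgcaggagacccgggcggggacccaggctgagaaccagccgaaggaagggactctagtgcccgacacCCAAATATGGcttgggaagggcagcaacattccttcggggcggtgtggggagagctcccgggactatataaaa

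Lineage genes other than those of the epiblast were also measured, since serum cultures can hold differentiating cells; in bulk RNA fewer cells of a type and less RNA per cell cannot be told apart. Of 15 genes of primitive and visceral endoderm 9 fell and 0 rose (median -1.65), and 1 was called lower when signal above background was asked for on all 16 arrays. Cubn, an endocytic receptor of visceral endoderm, read -0.67 and -0.89 in serum and was below background in 2i, at least 5.91-fold lower. Lamb1, a laminin of basement membranes, read 3.67 and 3.33 and 1.38, 1.28 and 1.23. Col4a1, a collagen of the same sheets, read 0.87 and 0.51 and -2.04, -2.27 and -2.63, with 1 of 3 arrays in 2i above background. Gata6, Sox7, Sox17, Dab2, Amn and Col4a2 were the other called genes; the Gata6 call was lost on slide 1 alone (-2.38, adjusted p = 0.056, limma), and Sox17 was at -0.89 after normexp background correction. The defining markers were low in both media: the summed linear signal of Gata4, Gata6, Sox7, Sox17 and Pdgfra was 1.127 to 1.534 times the 75th percentile in TKO-serum and 0.3819 to 0.7783 times in TKO-2i, against 10.07 to 11.36 times in J1-serum. Over all 15 listed genes the sum changed little, from 58.95 to 60.99 times in TKO-serum to 54.26 to 58.37 times in TKO-2i. Pdgfra was above background on no TKO array, and Lama1 (0.54) and Sparc (0.21) were not called. The part of such cells in the endoderm result was not tested.

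Of 12 trophoblast genes 4 rose and 4 fell (median -0.02). Tead4, needed for the trophectoderm, rose by 2.13 ± 0.14 with Cdx2, while Gata3 fell at least 2.23-fold and Ascl2, an imprinted helix-loop-helix factor of the placenta, by 1.74 ± 0.17. Krt8 and Krt18, which pair in the filaments of simple epithelia, moved apart: Krt18 fell by 1.53 ± 0.20, and Krt8 read 1.51 and 1.73 in serum and 2.52, 2.59 and 2.77 in 2i (1.01 ± 0.11), at the edge of the limit. Krt8 was at 0.90 without TKO-serum replicate 1, at 0.94 without TKO-2i replicate 3 and at 0.94 in the authors' deposited values, and was not called in these. Of 9 mesoderm and primitive streak genes 3 rose and 0 fell (median -0.19). Besides T these were Gsc (goosecoid), at least 6.9-fold higher, and Eomes, at 1.12, which was 0.82 and not called without TKO-serum replicate 2 and 0.96 without TKO-2i replicate 3; Mixl1, Mesp1 and Evx1 were not tested. Of 12 neural genes 1 rose and 5 fell (median -0.08). Pax6 read -0.23 and 0.40 in serum and -3.81, -3.64 and -3.27 in 2i, at least 10.4-fold lower, and Stmn2 fell by 1.17 ± 0.11, whereas Ncam1 rose by 1.27 ± 0.13. Zic1, a zinc finger factor, was at -1.22, and at -0.96 and not called after normexp correction. Sox1 (-0.17), Nes (0.05) and Tubb3 (0.00) were not called. The summed signal of 4 neural markers was 7.225 to 7.856 times the 75th percentile in TKO-serum and 5.985 to 6.825 times in TKO-2i, and of 4 trophoblast markers 0.2957 to 1.003 and 0.3495 to 0.4008 times.

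Of 12 genes of epithelial junctions and keratins 6 fell and 1 rose (median -1.03). Cldn6, a tight junction protein of the early embryo, read 2.43 and 2.68 in serum and -1.76, -1.36 and -1.02 in 2i. Epcam, an adhesion molecule of mESCs, fell by 1.70 ± 0.11, Ocln by 2.18 ± 0.15 and Krt19 by 1.30 ± 0.14. Cdh1, E-cadherin, was 0.52 ± 0.10 and Tjp1 -0.05 ± 0.17, neither called. Among 10 tested fibroblast genes 4 were called lower and 0 higher (median -0.65). Dcn was called on signals below background in both media and lost the call without TKO-serum replicate 2 (adjusted p = 0.0622, limma), and Col1a2 (-1.22) was at -0.90 and not called after normexp correction. Mmp2, a gelatinase, read 0.26 and 0.15 in serum, at least 11.3-fold lower in 2i, and Twist1 fell by 2.05 ± 0.42. Both TKO cultures were without feeders, and the summed fibroblast markers given above stand against 23.67 to 30.83 times the 75th percentile in J1-serum. Of the 16, 7 were above background on all TKO-serum arrays and 5 on all TKO-2i arrays. Dcn, Postn and Mmp3, which were above background on J1-serum arrays, were so on no TKO array. Col5a2, Lum and Prrx1 were above background on no TKO array and on no J1-serum array.

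Germline genes, whose promoters are usually rich in CpG and methylated in somatic cells, fell more often than they rose in TKO cells. The median of the list was -1.29 in TKO cells, -1.18 in J1 and 0.24 in 3B3l. In all, 10 of 20 tested fell and 1 rose, against 3 called lower under the filter on all 16 arrays. Mael, a piRNA pathway protein, read 2.45 and 2.59 in serum and -0.50, -0.59 and -0.95 in 2i, a fall of 3.20 ± 0.16 (adjusted p = 1.52e-08, limma). Asz1, another piRNA factor of germ granules, read 0.30 and 0.69 and -2.12, -2.05 and -1.85, a fall of 2.50 ± 0.24. Tex101, a germ cell surface protein, read -0.44 and -0.27 and then -4.12, -3.21 and -3.77, at least 7.8-fold lower. For all 3 genes the 2 media did not overlap. Ddx4, the germ cell RNA helicase, fell by 2.22 ± 0.14, Slc25a31 by 1.69 ± 0.13 and Stra8, the gate to meiosis, by 1.70 ± 0.20. Mov10l1, Piwil2 and Sycp1, a protein of the synaptonemal complex, went below background, at least 4.49-fold, 5.02-fold and 2.84-fold lower. Dpep3 was at -1.81, and at -0.79 and not called after normexp correction. Dazl, an RNA-binding protein of germ cells, was the 1 member called higher (3.00 and 2.49 in serum, 3.87, 3.82 and 3.99 in 2i, 1.15 ± 0.22), and was at 0.89 and not called without TKO-serum replicate 2. Fkbp6 was 0.83 ± 0.16, below the limit, and 1.11 without TKO-serum replicate 2. Rpl10l (0.98), Hormad1 (-0.79), Sycp3 (-0.90), Stk31 (-0.61) and Rec8 (0.06) were not called.

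The windows of 250 bases before the start held a median of 16 CpG over 21 listed germline genes and of 6 over all 27025 genes. Within the list, 9 fallen genes had a median of 17 and 9 uncalled genes of 14, with ranges of 5 to 31 and 8 to 29 that overlapped. The windows of Mael (chr1:166238745-166238994, minus strand, 18 CpG), Asz1 (chr6:18109062-18109311, minus strand, 15 CpG) and Dazl (chr17:50293621-50293870, minus strand, 20 CpG) show this for 2 genes that fell and the 1 called higher, with each CpG in capitals (RefSeq, GRCm38.p6).

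Mael: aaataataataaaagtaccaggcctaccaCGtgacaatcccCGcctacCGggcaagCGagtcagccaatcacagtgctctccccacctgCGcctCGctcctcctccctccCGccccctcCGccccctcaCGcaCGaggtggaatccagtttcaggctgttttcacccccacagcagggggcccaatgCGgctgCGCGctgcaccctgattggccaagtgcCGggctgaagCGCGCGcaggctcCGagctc

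Asz1: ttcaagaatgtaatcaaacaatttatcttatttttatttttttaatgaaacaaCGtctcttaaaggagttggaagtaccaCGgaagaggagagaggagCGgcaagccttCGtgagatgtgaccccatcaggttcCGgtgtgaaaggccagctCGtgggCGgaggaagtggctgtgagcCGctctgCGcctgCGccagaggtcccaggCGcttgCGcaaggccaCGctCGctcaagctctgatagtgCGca

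Dazl: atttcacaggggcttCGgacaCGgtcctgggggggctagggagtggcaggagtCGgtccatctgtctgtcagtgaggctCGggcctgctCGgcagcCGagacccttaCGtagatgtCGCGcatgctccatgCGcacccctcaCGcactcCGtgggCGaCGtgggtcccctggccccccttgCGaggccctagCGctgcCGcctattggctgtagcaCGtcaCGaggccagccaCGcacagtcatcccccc

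Genes of the 2-cell stage had the lowest median of all lists, -3.54. These genes are expressed at genome activation and, in mESC cultures, in a small share of cells at any time. Of 15 tested 11 fell and 0 rose; under the filter on all 16 arrays 4 were called lower. Zscan4f, which acts in telomere maintenance, read 3.47 and 3.44 in serum and -3.89, -4.18 and -4.34 in 2i, at least 112-fold lower (adjusted p = 1.29e-11, limma). Zscan4b read 2.90 and 2.94 and -4.59, -4.73 and -4.85, at least 77.2-fold lower, and Zscan4c, which was still above background in 2i, 1.47 and 1.46 and -2.05, -1.65 and -1.38, an 8.95-fold fall. The lowest serum array was above the highest 2i array by more than 2 log2 units in each of these. Tcstv1 was at least 7-fold lower, Gm8300 at least 18.1-fold, and Gm2022, BB287469 and Tmem92, the last 2 above background on 2 of 3 arrays in 2i, fell by 3.54 ± 0.17, 4.17 ± 0.27 and 3.03 ± 0.14. Tcstv3 (-1.94) was at -0.96 and not called after normexp correction. Zfp352 (-0.90), Usp17la (0.25), Usp17ld (0.02) and Pramel48 (2.18, adjusted p = 0.156) did not pass. Several of these families have near-identical copies that 1 probe may read together, so the values of single Zscan4, Gm4340, Gm4312 and AF067061 family members are uncertain. With the table of values that the authors deposited, 4 members were called, and no named member whose probe was tested there lost its call. In contrast to the germline windows, 17 listed 2-cell-stage genes had a median of 1 CpG (range 0 to 3); the window of Zscan4f (chr7:11397665-11397914, plus strand), with 3 CpG in capitals, is the one with the largest bound.

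Zscan4f: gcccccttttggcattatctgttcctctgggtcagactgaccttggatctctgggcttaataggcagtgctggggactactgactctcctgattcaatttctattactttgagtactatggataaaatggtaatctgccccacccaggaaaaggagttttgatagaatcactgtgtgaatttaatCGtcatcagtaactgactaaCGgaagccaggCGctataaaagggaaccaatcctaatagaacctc

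Hox genes, which pattern the body axis and are held silent by Polycomb complexes in mESCs, had the highest median, 1.81: of 18 tested 12 rose and 1 fell. Another 21 of 39 were not tested. Since a gene below background in serum entered the test only through a group where it was higher, and 9 of the 18 were below background on both TKO-serum arrays, the count and the median describe these genes and support nothing about the clusters. With probes above background on all 16 arrays 1 Hox gene was called higher. Hoxc4 read -3.23 and -3.16 in serum and 1.43, 1.34 and 1.48 in 2i, at least 24.4-fold higher (adjusted p = 6.20e-10, limma). Hoxd9 read -4.77 and -4.07 and -0.15, -0.24 and -0.47, at least 9.59-fold higher. Hoxd8 read -4.65 and -4.54 and -0.44, -0.60 and -0.64, at least 7.91-fold higher. None of the 3 was above background in serum, and their 2i arrays lay between -0.64 and 1.48. Further rises from below background were at least 7.09-fold for Hoxd4, 4.98-fold for Hoxc6, 2.72-fold for Hoxc9, 5.48-fold for Hoxb9 and 3.06-fold for Hoxb13, and Hoxc13, measured in both media, rose by 2.08 ± 0.14. By cluster, 2 of 6 tested Hoxa genes, 3 of 4 Hoxb, 4 of 4 Hoxc and 3 of 4 Hoxd genes rose. The Hoxa cluster was the one with most genes above background in serum, 6 against 1 in each other cluster. Hoxb2 fell at least 3.44-fold. Hoxb4 was called on signals below background in both media, and Hoxa7, at 1.11, was 0.80 and not called after normexp background correction.

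Genes of the Polycomb complexes themselves gave 2 rises and 4 falls in 18 (median 0.24). The catalytic subunit Ezh2 (0.22 ± 0.11), Eed (0.17 ± 0.13) and Rnf2 (0.57 ± 0.12) were not called. Bmi1 rose by 1.16 ± 0.11, while Phc1 and Pcgf5 fell by 1.42 ± 0.16 and 1.20 ± 0.11. Phf19 (-1.75), above background on 1 of 3 arrays in 2i, lost its call without either serum replicate (adjusted p = 0.126 and 0.0629, limma) and without TKO-2i replicate 2 or 3, and Jarid2 (-1.03) was at -0.995 and not called without TKO-serum replicate 1. Of 17 writers, readers and erasers of DNA methylation 2 rose and 2 fell (median -0.22). Dnmt3l, the cofactor of the absent de novo enzymes, read 5.51 and 5.57 in serum, saturated on both arrays, and 2.75, 3.01 and 3.06 in 2i, at least 6.07-fold lower. Uhrf1, which brings Dnmt1 to newly copied DNA, was at 1.09, and at 0.995 and not called in the authors' deposited values. The probes of Mbd1 disagreed, from -1.37 to 1.76. Tet1 was -0.63 ± 0.15 and Tet2 0.28 ± 0.16, neither called.

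Imprinted genes carry parental methylation marks that TKO cells cannot hold. Of 26 tested 12 fell and 1 rose (median -0.70), and 6 were called lower under the filter on all 16 arrays. Cdkn1c, an inhibitor of the cell cycle, read 2.00 and 2.02 in serum and -2.38, -2.22 and -2.21 in 2i, where 1 of 3 arrays was above background, a fall of 4.28 ± 0.14 (adjusted p = 3.97e-10, limma). Dlk1 read 1.96 and 1.90 and was below background in 2i, at least 28.9-fold lower, and Peg3 fell by 2.38 ± 0.27. Plagl1, a zinc finger factor, was the 1 that rose (4.07 and 3.43 in serum, 5.41, 5.58 and 5.53 in 2i). Genes of 1 imprinted cluster did not move together: next to H19, Igf2 was above background on no TKO array, and next to Dlk1, Meg3 was -0.11 ± 0.20 and Mirg 0.25 ± 0.19, neither called. Phlda2 fell by 2.17 ± 0.17 beside Cdkn1c, and Kcnq1ot1, the non-coding RNA of that cluster, was 0.38 ± 0.41. Sgce was at least 6.93-fold lower and Snrpn fell by 1.31 ± 0.12; Igf2r (0.13), Impact (0.04) and Zrsr1 (0.01) were not called.

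Of 8 X-linked Xlr genes 1 rose (median 0.04), Xlr itself, from below background (-3.45 and -3.10) to 0.13, -0.03 and 0.34, at least 10.3-fold, while Xlr3a, Xlr3b, Xlr4a and Xlr4b lay between 0.04 and 0.05. These families share near-identical copies, so single members are uncertain. Of 8 homeobox genes of the Rhox cluster Rhox6, Rhox9 and Rhox10 fell, by 1.62 ± 0.15, 1.36 ± 0.17 and 2.06 ± 0.15 (median -0.63), and Rhox5, which depends on DNA methylation in wild-type cells, was 0.12 ± 0.11. Of 2 tested Pramel genes Pramel6 rose from below background (median 1.38) and lost its call in an unmoderated test; Pramel7 was 0.79 ± 0.13.

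Of 21 sterol pathway genes 6 rose and 0 fell (median 0.52). Cyp51, the lanosterol demethylase, read -0.08 and -0.08 in serum and 1.46, 1.51 and 1.30 in 2i (1.50 ± 0.10, adjusted p = 1.51e-07), and Mvk and Insig1 rose by 1.15 ± 0.16 and 1.12 ± 0.17. Sc5d and Stard4 were near the limit: Sc5d (1.03) was at 0.93 without TKO-serum replicate 1, and Stard4 (1.11) at 1.05 without TKO-serum replicate 1 (adjusted p = 0.098, limma) and 1.16 without TKO-serum replicate 2 (adjusted p = 0.063, limma). Without a fold limit 14 members were higher. The sterol element TCACNCCA was in 3 of 13 windows of the list (Hmgcs1, Msmo1 and Srebf2, none called) and in 4.20% of all. Of 12 fatty acid genes 4 rose and 0 fell (median 0.75). The desaturase Scd1 read 0.62 and 0.71 in serum and 3.59, 3.43 and 3.56 in 2i, a 7.26-fold rise, and Scd2 and Fads1 rose by 1.37 ± 0.13 and 1.53 ± 0.14. Fasn was at 1.07, and at 0.88 and not called without TKO-serum replicate 2; Acaca was -0.17 ± 0.18.

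Of 14 genes of the amino acid stress response 3 rose and 0 fell (median 0.58). Nupr1, a small chromatin protein, read 2.13 and 2.52 in serum and 4.79, 4.83 and 4.74 in 2i, a 5.5-fold rise (adjusted p = 9.18e-08, limma), and Trib3, a pseudokinase that binds Atf4, rose by 1.21 ± 0.15. Ddit3 was at 1.16, and at 0.85 and not called without TKO-serum replicate 1. Atf4 (0.57 ± 0.17), Asns (0.80 ± 0.15) and Chac1 (-0.02 ± 0.19) were not called. The Atf4 composite element TTGCATCA was in 4 of 13 windows of the list (Atf3, Chac1, Nupr1 and Slc7a11) and in 0.918% of all; 1 of these 4 genes rose. The window of Nupr1 (chr7:126625471-126625720, minus strand, GRCm38.p6, RefSeq) has the element at position -110 from the start, in capitals, and is that of the member with the largest difference.

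Nupr1: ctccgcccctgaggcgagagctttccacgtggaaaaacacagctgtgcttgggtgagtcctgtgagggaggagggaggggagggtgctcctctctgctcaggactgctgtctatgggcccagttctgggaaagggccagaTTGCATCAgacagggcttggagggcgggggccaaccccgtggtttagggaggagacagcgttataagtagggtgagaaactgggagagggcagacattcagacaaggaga

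Glycolysis and hypoxia genes split. Of 23 tested 2 rose and 7 fell (median 0.16). Hk1, hexokinase 1, read 2.10 and 2.10 in serum and 4.46, 4.34 and 4.19 in 2i, a rise of 2.23 ± 0.14, while Hk2 was 0.21 ± 0.12. Aldoc was the other called gene, at 1.03, and at 0.78 and not called without TKO-serum replicate 1 and 0.96 without TKO-2i replicate 3. Pfkl, a phosphofructokinase subunit, was among the fallen genes (-1.29). Egln3, the oxygen sensor, read 0.04 and 0.32 in serum and was below background in 2i, at least 9.24-fold lower. Ankrd37, Ndufa4l2 and Pdk1 fell by 2.20 ± 0.12, 2.12 ± 0.23 and 1.66 ± 0.13. Vegfa (0.68) and Ndrg1 (0.56) were not called. P4ha2 (-1.08) was at -0.97 and not called without TKO-serum replicate 2, and Adm was called on signals below background, and was not called without TKO-serum replicate 2. Aldoa, Ldha, Pgk1 and Eno1 were saturated on both serum arrays and at least 1 array in 2i, so their small differences (0.36, 0.37, 0.16 and 0.27) are not full readings.

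Interferon-response genes gave 5 rises and 2 falls in 14 tested (median 0.25). Xaf1 read -0.11 and -0.40 in serum and 3.68, 3.63 and 3.65 in 2i, a 15-fold rise (adjusted p = 1.12e-10, limma), and the 2-5A synthetase family members Oasl1 and Oas1a rose by 2.63 ± 0.16 and 2.26 ± 0.21. Stat2 and Irf9, subunits of the interferon-activated complex ISGF3, rose by 1.33 ± 0.13 and 1.16 ± 0.11. Isg15, a ubiquitin-like protein, was -0.47 ± 0.35 and not called. Ifit1, Ifit3, Irf7, Rsad2 and Usp18 did not pass the filter on dim probes, and Ifih1 had no fitted difference. The chemokine Cxcl10 fell at least 2.63-fold. Ifit2 was at -1.19, and at -0.62 and not called after normexp correction. Of 16 cell cycle genes 3 rose and 4 fell (median 0.18). Ccnd2, cyclin D2, read 1.99 and 2.35 in serum and -2.42, -2.20 and -2.27 in 2i, where 2 of 3 arrays were above background, a fall of 4.46 ± 0.13. The inhibitors Cdkn1a and Cdkn2a rose by 1.57 ± 0.13 and 1.56 ± 0.13 and Cdkn2c by at least 3.34-fold, in the opposite direction to Cdkn1c. Mycn was at -1.11, and at -0.92 and not called without TKO-serum replicate 1.

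The response of TKO cells was tested against that of each other line by the difference of differences, with larger median SEs of 0.24 (against J1) and 0.27 (against 3B3l). It differed from J1 for 2418 genes (17.4% of those tested) and from 3B3l for 1549 (11.1%). Both tests use the same 5 TKO arrays, so their results are not independent, and only the values of each are given for the members. On the same probe both differences were called in 1 direction for 4.15% of the genes, 300 upwards and 277 downwards. With arrays scaled to their medians the split was 222 upwards and 327 downwards. With 1 probe per gene the shares were 1.84% upwards and 1.63% downwards. The first difference sets feeder-free cells against J1-serum cells on feeders, so line and feeder cells cannot be told apart in it. The second is feeder-free on both sides, but all 3B3l arrays lay on 1 slide with 1 J1-serum array, read on another scan day. With slide as a block 1590 genes differed from 3B3l, and 300 were above and 284 below both lines. Both 3B3l groups lay on the same slide, so this block cannot show whether slide or scan day changed the size of the 3B3l response. Where a probe was above background on no array of a group, the fitted difference includes that dim signal and is not an exact size: this holds below for Zscan4b, Zscan4f, Tcstv1, Asz1, Hoxc4, Hoxc6, Hoxd8, Hoxd9, Cdx2, S100a1, Cdc42ep1, Axl, Col1a1, Fgf15 and Fgf5.

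The 2-cell-stage genes carried some of the largest differences. Of 15 tested members 10 were below both other responses. The responses of these 10 lay between -2.47 and -1.55 in J1 and between 1.28 and 2.63 in 3B3l. AF067061 had a difference from J1 of -3.20 ± 0.17 and from 3B3l of -6.89 ± 0.19 (adjusted p = 1.13e-07 and 1.62e-10, limma). Its mean signal was 3.17 in J1-serum and 0.91 in J1-2i, and 0.68 in 3B3l-serum and 2.12 in 3B3l-2i, so the TKO-serum arrays (3.29 and 3.40) stood at the level of J1-serum and the TKO-2i arrays (-1.94, -2.29 and -2.08) below every other group. Gm4340 had -3.13 ± 0.16 and -6.41 ± 0.18, and Gm4312 -3.14 ± 0.23 and -6.80 ± 0.26. Zscan4b and Zscan4f had -5.43 and -10.23, and -5.48 and -9.99; these fitted values include TKO-2i signals below background and are not bounds. Tmem92 had -1.49 ± 0.18 and -4.31 ± 0.21. Tcstv1 had -1.63 ± 0.36 and -6.09 ± 0.41, the first of which was -0.88 and not called after normexp background correction.

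**Figure D3:**
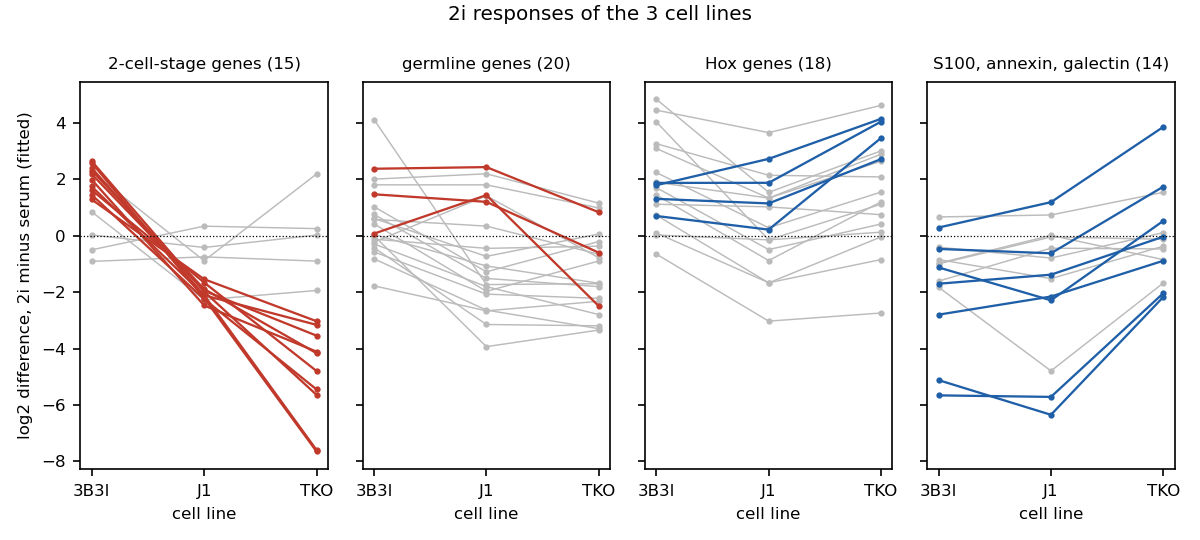
Fitted 2i minus serum differences on the log2 scale (y axis) in 3B3l, J1 and TKO cells (x axis) for the tested genes of 4 lists, with 1 line per gene, red where the TKO response was called below both others and blue where it was called above both. Of the 2-cell-stage genes 10 of 15 are red, of the germline genes 3 of 20, and 4 of 18 Hox genes and 7 of 14 S100, annexin and galectin genes are blue.

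Of the germline genes 3 of 20 were below both other responses. Asz1 fell in TKO cells and had differences of -3.93 ± 0.31 from J1 and -2.57 ± 0.36 from 3B3l (adjusted p = 2.33e-06 and 3.96e-04, limma). The Asz1 probe was above background on no J1 or 3B3l array, so the signal in TKO-serum (0.30 and 0.69) was measured in this line alone and the differences include signals below background. Fkbp6 had -1.60 ± 0.20 and -1.54 ± 0.23, and Stk31 -1.80 ± 0.28 and -2.07 ± 0.32; their responses were 2.43 and 1.19 in J1 and 2.37 and 1.46 in 3B3l. In serum their TKO arrays read 2.24 and 2.80 and 0.78 and 0.85, above the J1-serum means of -0.34 and -0.54 and the 3B3l-serum means of -1.04 and -0.44. Mael was -3.15 in J1, where the difference from TKO of -0.05 ± 0.21 did not pass the test (adjusted p = 0.896, limma), and -0.43 in 3B3l, where the difference of -2.77 ± 0.24 did.

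**Figure D4:**
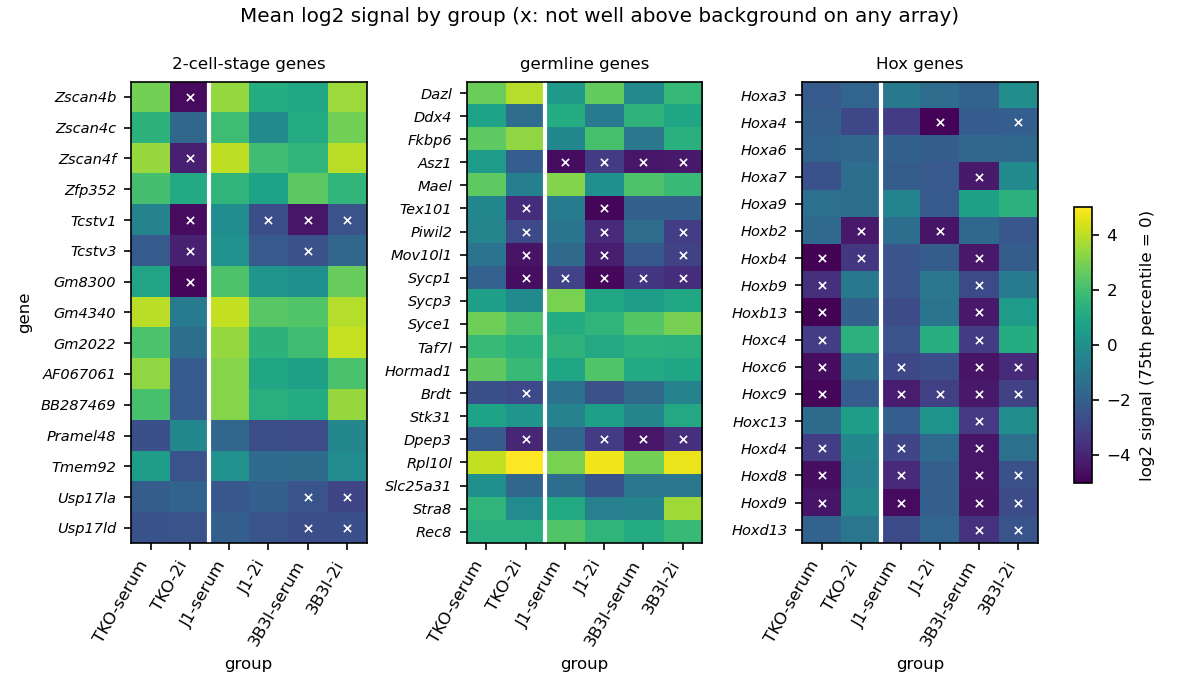
Mean log2 signal, with the 75th percentile of each array at 0 (colour scale), of tested 2-cell-stage, germline and Hox genes (y axis) in the 6 groups (x axis; TKO groups left of the white line), with a cross where the probe was well above background on no array of the group. Zscan4b has crosses in TKO-2i alone, Asz1 in all 4 J1 and 3B3l groups but not in TKO, and 9 of the Hox genes in TKO-serum.

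Of the Hox genes 4 of 18 were above both other responses. Hoxc6 had 3.24 ± 0.22 and 2.76 ± 0.25, Hoxd8 2.17 ± 0.34 and 2.17 ± 0.39, and Hoxd9 1.42 ± 0.26 and 2.35 ± 0.29, with adjusted p-values (limma) of 7.22e-07 and 1.34e-05, 5.37e-04 and 0.00254, and 0.00131 and 1.49e-04. Hoxc4, with the highest bound of the list, did not differ beyond the test's limits from 3B3l (0.17 ± 0.23, adjusted p = 0.711). Of the Wnt targets 3 of 12 were above both. Sp5 had 1.70 ± 0.24 and 1.92 ± 0.27, from a response of 1.64 in J1 and 1.41 in 3B3l. Tnfrsf19 had 1.30 ± 0.14 and 1.79 ± 0.16. Cdx2 had 4.92 ± 0.22 and 2.30 ± 0.25: it was -2.18 in J1, 0.44 in 3B3l, and went up from below background in TKO. Fam53b (2.10 ± 0.18 and 2.69 ± 0.21) and Ly6c1 (2.08 ± 0.21 and 2.64 ± 0.24) also rose by more in TKO cells.

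Of 14 S100, annexin and galectin genes, calcium-binding and membrane-associated proteins, 3 rose and 3 fell in TKO cells (median -0.25), but 7 were above both other responses. S100a6 fell by 2.04 in TKO against a response of -5.71 in J1 and -5.66 in 3B3l, so that the differences were 3.67 ± 0.19 and 3.62 ± 0.22 (adjusted p = 1.21e-07 and 3.35e-07, limma). In 2i its TKO arrays read 0.98, 1.07 and 1.00, against means of -1.52 in J1-2i and 0.07 in 3B3l-2i. S100a1 rose from below background to -0.14, -0.32 and -0.27, with differences of 2.67 ± 0.31 and 3.57 ± 0.35. S100a13 read 0.41 and 0.45 in serum and 2.20, 2.16 and 2.13 in 2i and had 2.36 ± 0.19 and 2.21 ± 0.22. Lgals1 was 0.52 ± 0.13 and not called in TKO, and had 2.81 ± 0.18 and 1.65 ± 0.20. Anxa4 rose by 1.53 ± 0.11, and Anxa3 and S100a4 fell by 2.17 ± 0.22 and 1.68 ± 0.18. Fibroblasts also express S100a6, Lgals1 and several annexins, and the summed fibroblast markers were lower in 2i in every line, going from 23.67-30.83 to 1.874-2.265 times the 75th percentile in J1 and from 9.059-11.43 to 3.565-3.926 times in the feeder-free 3B3l; their part in these differences was not tested.

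Among genes above background on all 5 TKO arrays, the 5 with the largest differences upwards from both lines were Cdc42ep1, Axl, S100a6, Col1a1 and Isg20. Cdc42ep1, an effector of the GTPase Cdc42, read -0.21 and -0.65 in TKO-serum and -0.32, -0.61 and -0.19 in TKO-2i (0.06 ± 0.17), while it was -3.76 in J1 and -4.35 in 3B3l, with differences of 3.81 ± 0.22 and 4.40 ± 0.25 (adjusted p = 2.18e-07 and 1.71e-07, limma). It was above background on no J1-2i and no 3B3l-2i array. Axl, a receptor tyrosine kinase, rose in TKO (-2.27 and -2.58 in serum, -0.95, -1.07 and -1.13 in 2i) and was -2.34 in J1 and -3.12 in 3B3l, with differences of 3.72 ± 0.19 and 4.49 ± 0.22, the second against 3B3l-2i arrays that were all below background. Isg20, an interferon-induced exonuclease, rose by 2.40 ± 0.15, with 3.33 ± 0.19 and 3.38 ± 0.22. Col1a1, a fibroblast collagen, read -0.46 and -1.60 and -1.51, -1.65 and -1.69 in TKO, and its differences of 6.003 ± 0.55 and 3.44 ± 0.63 stand beside mean serum levels of 2.49 in J1 on feeders and 1.87 in 3B3l, and it was above background on no J1-2i array and on 1 of 2 3B3l-2i arrays. Downwards, next to AF067061, Gm4312, Gm4340 and Asz1, stood Myo1f, a class I myosin, which read 1.70 and 1.88 in TKO-serum and -0.47, -0.53 and -1.11 in TKO-2i and had -2.47 ± 0.24 and -3.69 ± 0.28. The fitted responses of Fgf15 and Ocln were also below those of the other lines, with -2.40 ± 0.26 and -2.41 ± 0.29 for Fgf15, which was below background in 2i in all 3 lines, and -1.61 ± 0.20 and -1.64 ± 0.23 for Ocln. The epiblast genes Fgf5 and Otx2 differed from the 2 lines in opposite directions, by -2.73 ± 0.24 and 1.89 ± 0.28 for Fgf5 and -1.96 ± 0.16 and 1.49 ± 0.18 for Otx2, so that TKO cells lay between J1 (-0.15 and -0.09) and 3B3l (-4.77 and -3.54).

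By chromosome, the median difference in TKO cells was between -0.002 (chromosome 14) and 0.168 (chromosome 16), leaving out the 6 tested genes of chromosome Y. Chromosome 14 also had the largest share of fallen genes, 13.9%, followed by the X chromosome with 12.8%, against 9.02% over all.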

How the data were processed

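RNA (RNeasy) for the 16 arrays was labelled with Cy3 and hybridised to 1-colour mouse arrays of 62976 spots, 59305 of them not controls, which hold 55681 probes. The scans were read by the authors with Agilent Feature Extraction 11.5.1.1, and the processed signal they deposited is an intensity, background-corrected by that software. The authors also deposited a table of normalized log2 values, which served as an alternative, since several of its columns matched another array of the same group best. Its centring is not given in the sources used here.

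From the intensities, outlier-flagged and control spots were left out, log2 values were taken relative to the 75th percentile of each array, and repeated spots of one probe were averaged. A probe was called well above background on an array if at least 50% of its spots were so marked, and was tested if this held on every array of at least 1 of the 6 groups. RefSeq accessions named 28026 of the 28039 named probes (21159 genes). A mean per group was fitted to all 16 arrays with limma 3.58.1 (R 4.3.3), and the TKO response and its differences from the J1 and 3B3l responses were tested with eBayes and Benjamini-Hochberg adjustment, at an adjusted p of 0.05 and a 2-fold change. The arrays' number limits the precision. On data simulated on these samples the script was tested for the recovery of known changes.

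Genes were named by 4 rules: the 12 largest increases and decreases above background on all 5 TKO arrays without overlap, the 6 largest bounds in each direction, the 5 genes in each direction, also above background on all 5 TKO arrays, with the largest smaller difference from both other lines, and members of 32 gene lists by the probe with the highest mean signal. The members and lists were chosen with earlier results of these data known, so no list is independent evidence. A few members are counted in their lists but not reported singly here. Promoter windows are the 250 bases before the start in RefSeq's GRCm38.p6 table. Several lists were chosen as targets of the factor whose motif was counted, such as SRF, beta-catenin or Atf4. A higher motif share in such a list is therefore no evidence about the responses. The samples were treated as unpaired, since the labels do not say that replicate numbers pair them. The deviations of same-numbered TKO arrays correlated at 0.0153 and -0.028 in 2 pairs. With 2 serum arrays, whose deviations mirror each other, these values cannot decide whether the samples were paired. The alternatives changed the scaling, background correction, filter, test, fold limit, slide, replicate block, probe choice, table and arrays. Python 3.11.15, pandas 2.3.3 and matplotlib 3.10.9 were used for the rest.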

Additional observations from a re-analysis of the deposited data

Results flagged for a closer look

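All results here are differences of the TKO response from the response of another line, tested by limma; the first value is TKO minus J1 and the second TKO minus 3B3l, on the log2 scale. They rest on the same 5 TKO arrays, and the first also sets cells without feeders against J1-serum cells on feeders. By count, 2418 genes differed from J1 and 1549 from 3B3l, with 300 above both and 277 below both.

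Among genes of the 2-cell stage and their neighbours, AF067061 had -3.20 and -6.89, Gm4312 -3.14 and -6.80, Gm4340 -3.13 and -6.41, Zscan4b -5.43 and -10.23, Zscan4f -5.48 and -9.99, Tcstv1 -1.63 and -6.09, and Tmem92 -1.49 and -4.31. The values of Zscan4b, Zscan4f, Tcstv1 and, further on, of Asz1, Fgf15, Hoxc6, Hoxd8, Hoxd9, Cdx2, S100a1, Col1a1, Cdc42ep1 and Axl include signals of at least 1 group that was below background on all its arrays, and are not exact sizes. Of the germline genes, Asz1 had -3.93 and -2.57, Fkbp6 -1.60 and -1.54, and Stk31 -1.80 and -2.07. Other genes lower than in both lines were Myo1f with -2.47 and -3.69, Fgf15 with -2.40 and -2.41, and Ocln with -1.61 and -1.64.

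Of the genes above both lines, the Hox genes Hoxc6, Hoxd8 and Hoxd9 had 3.24 and 2.76, 2.17 and 2.17, and 1.42 and 2.35. The Wnt targets Sp5, Cdx2 and Tnfrsf19 had 1.70 and 1.92, 4.92 and 2.30, and 1.30 and 1.79. S100a1 had 2.67 and 3.57, S100a6 3.67 and 3.62, S100a13 2.36 and 2.21, and Lgals1 2.81 and 1.65. Col1a1 had 6.003 and 3.44, with the fibroblast markers lower in 2i in every line. Cdc42ep1 had 3.81 and 4.40, Axl 3.72 and 4.49, Isg20 3.33 and 3.38, Fam53b 2.10 and 2.69, and Ly6c1 2.08 and 2.64.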

How the results depend on the processing

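The replicate number as a block gave 2447 called genes in TKO cells (1052 up, 1399 down), 2342 for the difference from J1 and 1457 for that from 3B3l, against 2456, 2418 and 1549 without it, and 274 up and 253 down for both. The labels do not say that replicate numbers pair these arrays, and the deviations of same-numbered arrays (correlations of 0.0153 and -0.028) cannot decide it. The block took the calls of Krt8 (0.986) and Aldoc (0.966). With probes well above background on all 16 arrays, which removes genes absent from 1 medium, 1071 genes were called (627 up, 446 down), 1129 and 669 differed from J1 and 3B3l, and 122 were above and 78 below both. The calls by list were then 4 for ERK, 3 for Wnt, 1 for endoderm, 5 for contractile, 3 for germline, 4 for 2-cell-stage, 6 for imprinted and 1 for Hox genes. Without a fold limit 5877 genes were called (3170 up, 2744 down), 4700 and 2561 differed and 614 were above and 481 below both, with 8 naive, 14 sterol and 9 fatty acid genes up. Under normexp correction 202 genes were above and 146 below both lines, in the unmoderated test of 5 arrays 6 ERK genes were called, and with the values the authors deposited 4 genes of the 2-cell stage were. The cause of the changes under normexp correction and in the unmoderated test was not tested. With the deposited values, no named gene of the 2-cell stage whose probe was tested lost its call.

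Leaving out 1 array at a time gave 2362 to 2603 called genes (1013 to 1139 up, 1328 to 1470 down), 2244 to 2588 and 1447 to 1608 for the differences and 259 to 321 up and 246 to 314 down for both. By list the ranges were 9 to 11 for ERK, 12 to 15 for primed, 10 to 12 for contractile, 10 to 11 for germline, 11 to 12 for imprinted, 4 to 6 for sterol and 4 to 5 for fatty acid genes, and 6 for Wnt, 5 for naive, 9 for endoderm, 11 for 2-cell-stage and 12 for Hox genes each time. Of 279 values of single genes, 230 kept their direction and side of the threshold under every alternative in which their probe was tested, and none of those tested reversed. Probes dim on any array were not tested under the filter on all 16 arrays. With 2 TKO-serum arrays, leaving out either leaves 1 array that is assumed to vary like the other groups. Probes near background limit the fold that can be read.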
